A study of Mus musculus with 8 samples.

Results

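The genes described here belong to the Notch pathway: the receptors Notch1, Notch2 and Notch3, the ligands Dll1, Dll3 and Jag1, and the target genes Hes1, Hes5, Hey1 and Nrarp. They were chosen by name. Each of the 10 names matched exactly 1 locus in every table, of 35494 loci in the table for 1 h and 35541 in each of the tables for 8 and 24 h. The data are polyadenylated RNA from mouse retinal organoids at day 6 of differentiation, sequenced after acute removal of METTL3, which writes the N6-methyladenosine (m6A) mark on RNA. All 4 groups were made from the same Rx:GFP line, in which both Mettl3 alleles carry FKBP12F36V-HA at the C-terminus. This tag lets the compound dTAG-13 send the protein for degradation. The groups were kept without dTAG-13 (called 0 h) or in 125 nM dTAG-13 for 1, 8 or 24 h, with 2 samples each. The labels place treatment on days 5 and 6 of differentiation and collection at a common time. They describe the duplicates as separate rounds of library preparation, and do not say whether these came from separate cultures. The 0 h cells thus carry the tag as well, no group without the tag was analysed here, and the labels do not say whether the 0 h cells received solvent.

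Notch receptors are cut when a ligand on a neighbouring cell binds them, and the freed intracellular part enters the nucleus, where it joins the DNA-binding protein RBPJ and a Mastermind co-activator. Their best known targets in neural tissue encode the bHLH repressors of the Hes and Hey families, which hold proneural genes down and keep progenitors dividing. In the early retina this signalling keeps progenitors from leaving the cell cycle too soon, and cells that make neurons express the ligands.

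Each table gives 1 value per gene for the 0 h group and 1 for a treated group, in FPKM (fragments scaled to transcript length and library size), with a lower and an upper bound deposited by the authors. The replicates were combined before deposit, so no test across samples could be made, and the errors given here are the authors' own. Values in brackets after an FPKM are these bounds. A log2 ratio is that of the treated over the 0 h FPKM with 0.1 added to each, and the standard error (SE) beside it was computed from the deposited variances of the estimated counts. A gene is said to have risen or fallen where the ratio reached 1.5-fold and the intervals of both groups did not overlap. Only loci with at least 1 FPKM in either group were judged.

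Estimated counts summed to between 31361518 and 32562075 per group in each table. Mettl3 RNA itself measured 19.4 FPKM both before and after 8 h of treatment, and its intervals overlapped at all 3 times, while the protein that the degron acts on was not measured. Among defining markers, those of retinal and neural progenitors were present, with Lhx2 at 142 FPKM, Pax6 at 126 FPKM and Six6 at 55.2 FPKM at 0 h in the table for 8 h. Markers of pluripotent cells were present too, with Pou5f1 at 34.7 FPKM and Nanog at 20.7 FPKM. Of the telencephalic genes, Emx2 was at 20.7 FPKM, Emx1 at 1.05 FPKM and Dlx2 at 0.0407 FPKM. Neural crest markers summed to 0.969 FPKM over 4 genes.

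Sequences just before the start sites are shown first for 3 members: Hes5 and Nrarp, which are targets, and Notch2, the receptor that passed the rule at 8 h. RefSeq windows on GRCm38.p6, from 250 bases before to 50 bases after a start site, were found for 8 of the 10 members, with 2 windows for Dll1. There were none for Hes1 and Hey1. The letters TGGGAA, the core recognised by RBPJ, and its longer form GTGGGAA were searched on both strands, as were CACGTG and CACGCG, which Hes and Hey proteins can bind. The shorter core is part of the longer form. Capitals mark the matches.
Hes5, chr4:154960673-154960972, + strand: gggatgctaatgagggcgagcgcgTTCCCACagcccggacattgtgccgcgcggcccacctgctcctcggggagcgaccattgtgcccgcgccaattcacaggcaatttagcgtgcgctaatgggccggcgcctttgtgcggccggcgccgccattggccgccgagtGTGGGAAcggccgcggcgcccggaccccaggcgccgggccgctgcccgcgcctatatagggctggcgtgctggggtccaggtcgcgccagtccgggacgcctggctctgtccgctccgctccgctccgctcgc
Nrarp, chr2:25180508-25180807, + strand: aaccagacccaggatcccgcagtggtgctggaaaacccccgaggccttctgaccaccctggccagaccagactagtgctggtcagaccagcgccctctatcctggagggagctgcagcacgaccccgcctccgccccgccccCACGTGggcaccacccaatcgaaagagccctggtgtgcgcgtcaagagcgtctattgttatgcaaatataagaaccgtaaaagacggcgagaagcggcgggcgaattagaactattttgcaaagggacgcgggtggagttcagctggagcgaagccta
Notch2, chr3:98013288-98013587, + strand: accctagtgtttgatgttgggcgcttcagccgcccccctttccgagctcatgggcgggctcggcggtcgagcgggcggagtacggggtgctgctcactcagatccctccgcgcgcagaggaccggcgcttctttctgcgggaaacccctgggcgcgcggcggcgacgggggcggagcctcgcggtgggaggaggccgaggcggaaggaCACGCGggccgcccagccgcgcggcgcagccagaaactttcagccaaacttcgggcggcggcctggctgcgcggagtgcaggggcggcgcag

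Hes5 was the only member whose window held the RBPJ core. It held GTGGGAA at 2 places, on the minus strand from base -226 and on the plus strand from base -83, counted from the start site. Of all 32851 windows, 25.6% held TGGGAA and 6.38% held GTGGGAA. The Nrarp window held CACGTG at base -108, as did 7.15% of all windows. CACGCG occurred in the windows of Notch2, Dll1 and Jag1, and in 9.27% of all windows. These matches describe letters in a window and were not measured as sites of binding.

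Of the 9 members that could be judged, Hey1 rose at 8 and 24 h and Notch2 rose at 8 h, and no member fell at any time. Of the 3 receptors, 1 rose at 8 h and none at 24 h, with log2 ratios from 0.34 to 0.59 over both times. Neither Dll1 nor Jag1 passed, and their ratios lay between -0.21 and 0.07 at these times. Dll3 was below 1 FPKM in every group and could not be judged. Each of the other 9 reached 1 FPKM at 0 h already.

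At 8 h, 2 of 9 members rose, Hey1 and Notch2, where 3.49% of 13825 loci rose, 0.940% fell and 4.43% did either. At 24 h, 1 of 9 rose, Hey1, where 3.83% of 13910 loci rose, 1.65% fell and 5.48% did either. At 1 h none of 9 passed, where 0.117% of 13690 loci rose, 0.285% fell and 0.402% did either. For 1, 8 and 24 h the median log2 ratios of the 9 were -0.09, 0.31 and 0.34, beside medians of 0.01, 0.01 and 0.02 over all loci judged. Ratios were above 0 for 1 member at 1 h, for 8 at 8 h and for 8 at 24 h, beside 51.6%, 51.3% and 52.1% of all loci. The 3 comparisons use the same 0 h libraries, so these counts do not add to each other.

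**Figure D1:**
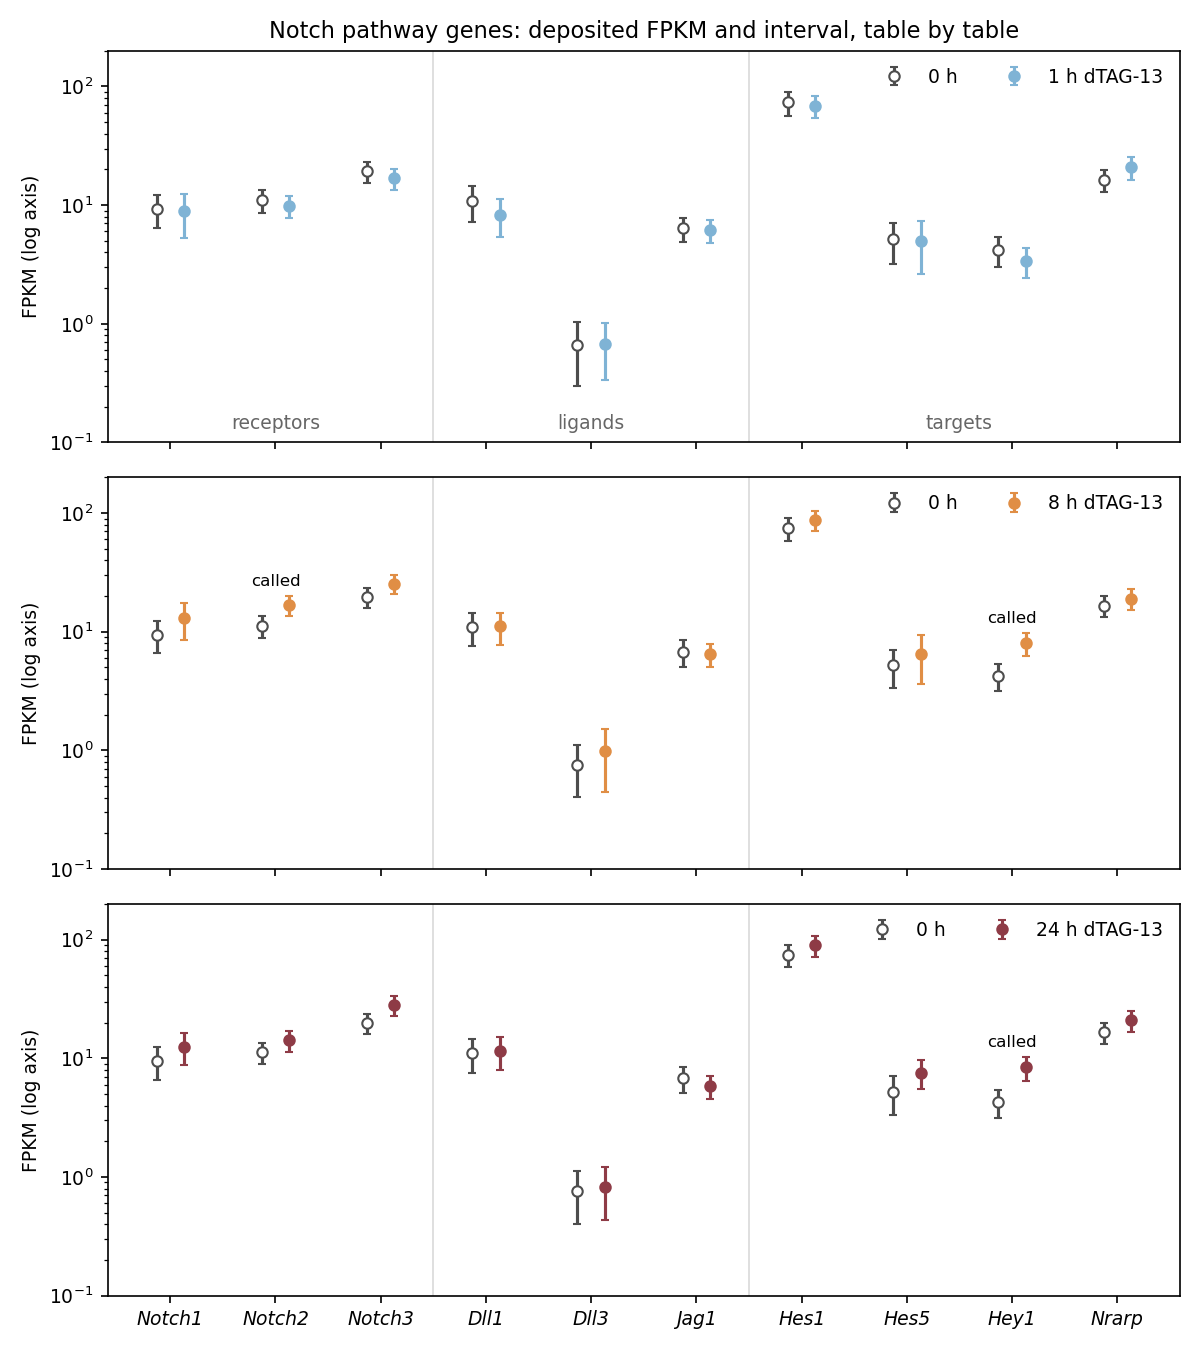
FPKM (log axis) of the 10 Notch pathway genes at 0 h (open circles) and after dTAG-13 (filled circles) in each of the 3 tables, with bars for the bounds deposited by the authors. Hey1 at 8 and 24 h and Notch2 at 8 h are the pairs whose bars do not overlap.

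At 0 h the members covered a wide range of levels. Hes1 was highest at 74.4 FPKM (58.7 to 90.1), apart from all others. Below it came Notch3 at 19.6 FPKM, Nrarp at 16.6, Notch2 at 11.2, Dll1 at 11.0, Notch1 at 9.45, Jag1 at 6.75, Hes5 at 5.22 and Hey1 at 4.25 FPKM. From Notch3 down to Hey1 each gene's interval overlapped that of the next in this order. Dll3 was lowest at 0.759 FPKM (0.408 to 1.11), apart from Hey1. Hey1 and Hes1, related repressors with the same kind of DNA-binding domain, thus differed widely in level, and the rarer of them is the one that rose.

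Positions are those of GENCODE M21 on GRCm38. Among the receptors, Notch2 (chromosome 3, 98013527 to 98150361, plus strand, 34 exons) went from 11.2 FPKM (8.91 to 13.5) at 0 h to 16.8 FPKM (13.5 to 20.2) at 8 h. The log2 ratio was 0.59 (SE 0.19), a 1.5-fold rise. The gene passed the rule by a narrow margin, since the intervals were 0.0167 FPKM apart. Centring all ratios on their median gave 0.58 and a pseudocount of 1 FPKM gave 0.55, and both ended the call, as did a 2-fold threshold. At 24 h it stood at 14.2 FPKM (11.4 to 17.0) against 11.2 FPKM (8.91 to 13.5), a log2 ratio of 0.34 (SE 0.20), with overlapping intervals. At 1 h the log2 ratio was -0.16 (SE 0.21).

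Notch3 (chromosome 17, 32120820 to 32166852, minus strand, 33 exons) was the most abundant receptor. It measured 19.6 FPKM (15.9 to 23.3) at 0 h and 25.5 FPKM (20.7 to 30.3) at 8 h, and 19.7 FPKM (15.9 to 23.5) at 0 h and 28.2 FPKM (22.8 to 33.5) at 24 h. The treated values were higher at both times, with log2 ratios of 0.38 (SE 0.19) and 0.52 (SE 0.19), but the intervals overlapped and the gene did not pass. Notch1 (chromosome 2, 26457903 to 26516663, minus strand, 34 exons), the receptor best known from the retina, gave 9.45 FPKM (6.58 to 12.3) and 13.1 FPKM (8.55 to 17.6) at 0 and 8 h, and 9.48 FPKM (6.56 to 12.4) and 12.5 FPKM (8.71 to 16.4) at 0 and 24 h. Its log2 ratios were 0.46 (SE 0.19) and 0.40 (SE 0.20), and its intervals overlapped widely. At 1 h the ratios of Notch1 and Notch3 were -0.07 (SE 0.21) and -0.20 (SE 0.21). The sign of the ratio was the same for the 3 receptors at each time, and 1 of 3 passed, at 8 h.

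Neither ligand judged passed at any time. Dll1 (chromosome 17, 15367354 to 15376872, minus strand, 11 exons), a Delta ligand made by cells on the way to neurons, measured 10.8 FPKM (7.16 to 14.5) at 0 h and 8.30 FPKM (5.36 to 11.2) at 1 h, a log2 ratio of -0.38 (SE 0.23). That was the lowest ratio of any member at any time, and only 5.76% of all loci at 1 h lay lower, yet the intervals overlapped. At 8 h its values were 11.0 FPKM (7.53 to 14.4) and 11.1 FPKM (7.74 to 14.5), and its log2 ratios were 0.02 (SE 0.21) at 8 h and 0.07 (SE 0.21) at 24 h. Jag1 (chromosome 2, 137081456 to 137116644, minus strand, 26 exons), a ligand of the Jagged family, was the member with ratios below 0 at all 3 times, at -0.05 (SE 0.22), -0.07 (SE 0.21) and -0.21 (SE 0.21). At 24 h it measured 6.77 FPKM (5.07 to 8.48) before and 5.83 FPKM (4.58 to 7.08) after treatment. Dll3 (chromosome 7, 28293553 to 28302238, minus strand, 9 exons), a divergent Delta protein known to dampen Notch signalling within its own cell, ranged from 0.662 to 0.981 FPKM over all groups and tables, on 46.8 to 59.2 estimated counts.

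Among the targets, Hey1 (chromosome 3, 8663359 to 8667256, minus strand, 5 exons) encodes a bHLH repressor. In the table for 1 h it went from 4.20 FPKM (3.02 to 5.37) to 3.39 FPKM (2.41 to 4.36), a log2 ratio of -0.30 (SE 0.27) with overlapping intervals. At 8 h it rose from 4.25 FPKM (3.17 to 5.33) to 8.03 FPKM (6.24 to 9.82). At 24 h it rose from 4.26 FPKM (3.17 to 5.36) to 8.41 FPKM (6.51 to 10.3). The log2 ratios were 0.90 (SE 0.23) and 0.96 (SE 0.24), or 1.87-fold and 1.95-fold, and 97.2% and 96.7% of all loci lay lower. In estimated counts the gene went from 302 to 582 at 8 h and from 299 to 596 at 24 h, with deposited standard deviations of 36.2 and 63.7 at 8 h and 36.4 and 65.3 at 24 h. Both calls ended under a 2-fold threshold and passed under the other 9 settings tried. The minimum of 5 FPKM, among these 9, was met by the treated group alone and so is no check on the call. Of the 9, 1.2-fold, fold alone, intervals alone, no filter on low values and a pseudocount of 0.01 FPKM could not end either call.

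Hes5 (chromosome 4, 154960923 to 154962371, plus strand, 3 exons) encodes the Hes factor most closely tied to Notch activity in neural progenitors. It measured 5.22 FPKM (3.36 to 7.08) at 0 h and 6.51 FPKM (3.60 to 9.43) at 8 h, a log2 ratio of 0.31 (SE 0.28). At 24 h it went from 5.24 FPKM (3.35 to 7.13) to 7.60 FPKM (5.54 to 9.66), a log2 ratio of 0.53 (SE 0.27). The treated values were higher but the intervals overlapped, and with 166 estimated counts at 0 h in the table for 24 h this gene has a wide one. The window with the RBPJ letters shown above thus belongs to a target that did not pass.

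Hes1 (chromosome 16, 30064384 to 30067796, plus strand, 4 exons), the abundant Hes repressor that also responds to signals other than Notch, stood at 73.4 FPKM (56.9 to 90.0) at 0 h and 69.0 FPKM (54.1 to 83.8) at 1 h. It measured 87.8 FPKM (70.7 to 105) at 8 h against 74.4 FPKM, and 90.1 FPKM (72.2 to 108) at 24 h against 74.6 FPKM. Log2 ratios were -0.09 (SE 0.21), 0.24 (SE 0.20) and 0.27 (SE 0.20), and none passed. Nrarp (chromosome 2, 25180758 to 25183339, plus strand, a single exon) encodes a small ankyrin-repeat protein that is induced by Notch and limits it in turn. Among the 9 judged it alone had a ratio above 0 at 1 h, where it went from 16.4 FPKM (12.8 to 19.9) to 20.8 FPKM (16.4 to 25.2), a log2 ratio of 0.34 (SE 0.22), and 93.5% of all loci lay lower. Its ratios at 8 and 24 h were 0.20 (SE 0.20) and 0.33 (SE 0.21), and its intervals overlapped at all times.

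**Figure D2:**
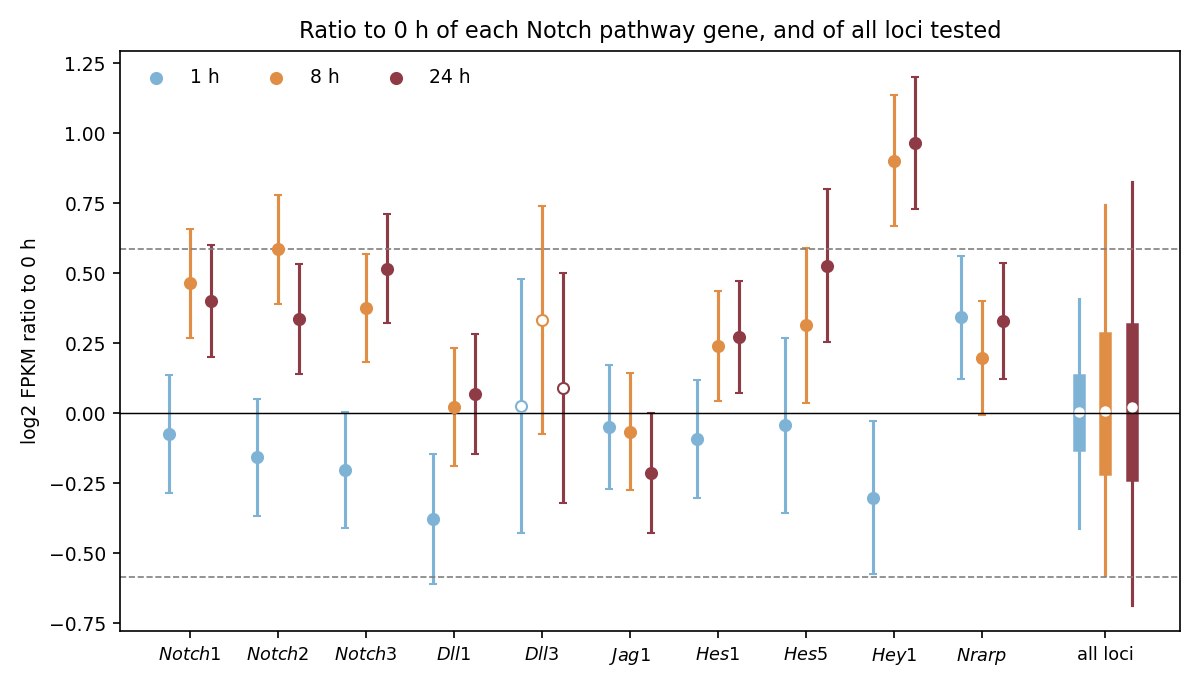
Log2 FPKM ratio to 0 h of each Notch pathway gene at 1, 8 and 24 h, with bars for the SE from the deposited count variances, open circles for Dll3 (below 1 FPKM) and dashed lines at 1.5-fold. At the right, bars span 5% to 95% of all loci judged, thick bars their middle 50%, and white points their medians. Hey1 at 8 and 24 h lies above the upper end of those spans, at 0.90 and 0.96.

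The loci of Notch3, Dll1 and Nrarp overlap antisense or long noncoding genes (Gm17276, A930024N18Rik and Gm38287) on the other strand, and the strandedness of counting is not given in the sources used here. Each of these neighbours was at or below 0.125 FPKM. In GENCODE M21, noncoding genes also lie across Notch1 (0610009E02Rik and Gm13568) and Hes5 (Gm20421) on the other strand, and without strand reads from them cannot be told apart. On the same strand, Gm42819 and Gm42820 overlap Notch2, and Mir6996 overlaps Notch1.

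Other genes of the pathway were taken from a list of 95 genes in 7 roles. Of these, 88 had a locus of their own in the table for 1 h and 89 in the others, and 65, 67 and 67 reached 1 FPKM. At 1 h none of 65 passed. At 8 h 1 rose and 1 fell of 67, and at 24 h 2 rose and 1 fell of 67, beside 4.43% and 5.48% of all loci. Median log2 ratios of the list were -0.03, 0.13 and 0.07 for 1, 8 and 24 h, with 25, 46 and 39 genes above 0.

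Of 19 genes for the nuclear complex and its co-repressors, Maml1 rose at both later times and the other 18 did not pass. Maml1 encodes a Mastermind co-activator. It went from 15.2 FPKM (12.3 to 18.1) to 24.5 FPKM (19.8 to 29.1) at 8 h and from 15.2 FPKM (12.3 to 18.2) to 26.1 FPKM (21.1 to 31.2) at 24 h, log2 ratios of 0.68 (SE 0.19) and 0.77 (SE 0.20). The ratios of the other 18 ran from -0.33 to 0.42 at 8 h and from -0.42 to 0.37 at 24 h. Rbpj, the DNA-binding partner of the cut receptor, was among them, at 35.0 FPKM at 0 h and 39.3 FPKM at 8 h.

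Machinery that makes ligand and receptor active did not pass at any time. In the group for receptor glycosylation and cleavage, ratios of the 13 genes judged ran from -0.33 to 0.76 at 8 h and from -0.30 to 0.56 at 24 h. The upper end at 8 h was Mfng, a Fringe enzyme that adds sugars to Notch, at 2.37 FPKM at 0 h and 4.09 FPKM at 8 h with overlapping intervals. Genes of ligand endocytosis ran from -0.31 to 0.46 at 8 h and from -0.18 to 0.46 at 24 h, over 5 genes judged. The 13 negative regulators judged ran from -0.34 to 0.62 at 8 h and from -0.25 to 0.44 at 24 h.

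Of 6 receptors and ligands outside the 10 with a locus of their own, 3 reached 1 FPKM at 8 h and none passed. Dlk1, a Delta-like protein, was at 24.2 FPKM at 0 h and 28.9 FPKM at 8 h, Notch4 at 2.57 FPKM at 0 h and 3.34 FPKM at 8 h, Jag2 at 5.46 and 6.41 FPKM, and Dll4 at 0.0507 FPKM at 0 h. Of 11 other targets judged, none rose. Cdkn1a, a cell cycle inhibitor that is better known as a target of p53, fell with log2 ratios of -1.26 (SE 0.20) at 8 h and -0.87 (SE 0.20) at 24 h. The Hey1 relatives Hey2 and Heyl were at 0.560 and 0.0173 FPKM at 0 h in the table for 8 h, too low to judge. Hes6, which counters Hes1, had ratios of 0.37 at 8 h and 0.57 at 24 h and did not pass.

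Proneural and early neuron genes, which Hes and Hey factors repress, were mostly below 1 FPKM: 3 of the 15 with a locus of their own reached 1 FPKM at 24 h. Insm1, a zinc finger gene of newly formed neurons and neuroendocrine cells, rose at 24 h from 0.562 FPKM (0.332 to 0.792) to 1.78 FPKM (1.29 to 2.28), a log2 ratio of 1.51 (SE 0.36), and was judged only because the treated value reached 1 FPKM. With a minimum of 5 FPKM it was no longer judged. The other 2 judged at 24 h, the neuronal genes Stmn2 and Elavl4, had ratios of -0.40 (SE 0.27) and -0.27 (SE 0.29) and did not pass.

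**Figure D3:**
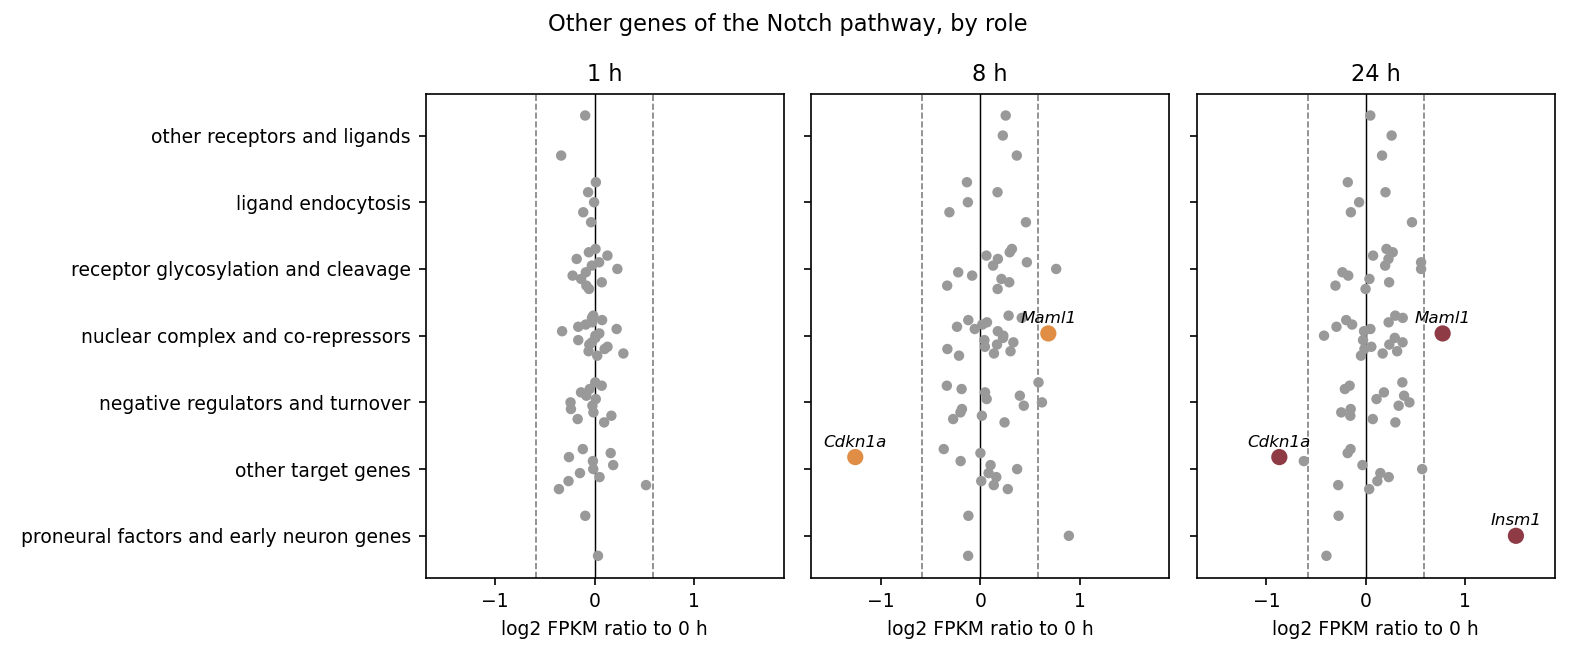
Log2 FPKM ratio to 0 h (x axis) of the other Notch pathway genes that reached 1 FPKM, by role (rows) at 1, 8 and 24 h, with dashed lines at 1.5-fold. Coloured and named points passed the rule: Maml1 above 0 and Cdkn1a below 0 at 8 and 24 h, and Insm1 at 24 h.

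The organoids are a mixture, and in bulk RNA a change in the number of cells of a type cannot be told apart from a change of RNA per cell. Progenitor markers moved with the members: over 7 genes their summed level was 474 FPKM at 0 h and 592 FPKM at 8 h, and 476 and 623 FPKM at 0 and 24 h. None of 7 passed at 8 h and 2 rose at 24 h, Rax and Lhx2, with ratios of 0.66 and 0.69, where 3.49% and 3.83% of all loci rose at these times. Hey1 and Notch receptors are also genes of blood vessels. Endothelial markers summed over 5 genes to 26.3 FPKM at 0 h and 21.8 FPKM at 8 h, and to 26.4 and 18.7 FPKM at 0 and 24 h, and none of the 2 judged passed. In the table for 8 h, Kdr was at 21.9 FPKM at 0 h, Pecam1 at 3.48, Tek at 0.483, Cdh5 at 0.446 and Tie1 at 0.0144 FPKM. Pigment epithelium markers summed to 60.0 and 77.1 FPKM at 0 and 8 h. At 0 and 24 h the sums were 60.2 and 97.3 FPKM, and none of 3 judged passed at either time. Most of the higher sum at 24 h came from Pmel alone. Its level was 28.9 FPKM (13.3 to 44.5) at 0 h and 60.3 FPKM (35.6 to 85.0) at 24 h, with overlapping intervals. Between the same times Dct went from 11.6 to 14.6 FPKM and Mitf from 19.2 to 21.4 FPKM. The part of progenitor, endothelial and pigment epithelium cells in the ratios of the members was not tested.

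The members were next set against gene structure. They were chosen by name, but with earlier results of these data known. Their place by structure therefore cannot be taken as independent of their ratios. Exon density, counted here as junctions for every kilobase that codes in 1 GENCODE transcript a gene, was below the median of 6.16 over 10964 genes for 9 of 10 members. Jag1 was the exception, at 6.84, and was also the member judged with a ratio below 0 at 8 and 24 h. Ranked by density and cut into 10 bins of like size, genes had medians that differed: the median ratio at 8 h ran from 0.41 in the lowest to -0.13 in the highest. Nrarp has no intron and falls in the lowest group. The other members besides Jag1 had 3.55 to 4.62 junctions per kilobase, in groups 3 and 4, whose medians at 8 h were 0.19 and 0.08.

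Within their own density groups the members differed. Hey1, at 4.46 junctions per kilobase, lay above 99.1% of its group at 8 h and 98.9% at 24 h. Notch2 lay above 93.3% of the same group at 8 h and 77.5% at 24 h, and Notch3 above 82.0% and 89.8%. Hes1, Hes5 and Notch1 lay above 56.2%, 64.7% and 79.1% of their group at 8 h. Nrarp lay above 32.1% of its group at 8 h and 45.3% at 24 h, where the group medians were 0.41 and 0.37. These places describe single genes, and genes are not replicates.

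**Figure D4:**
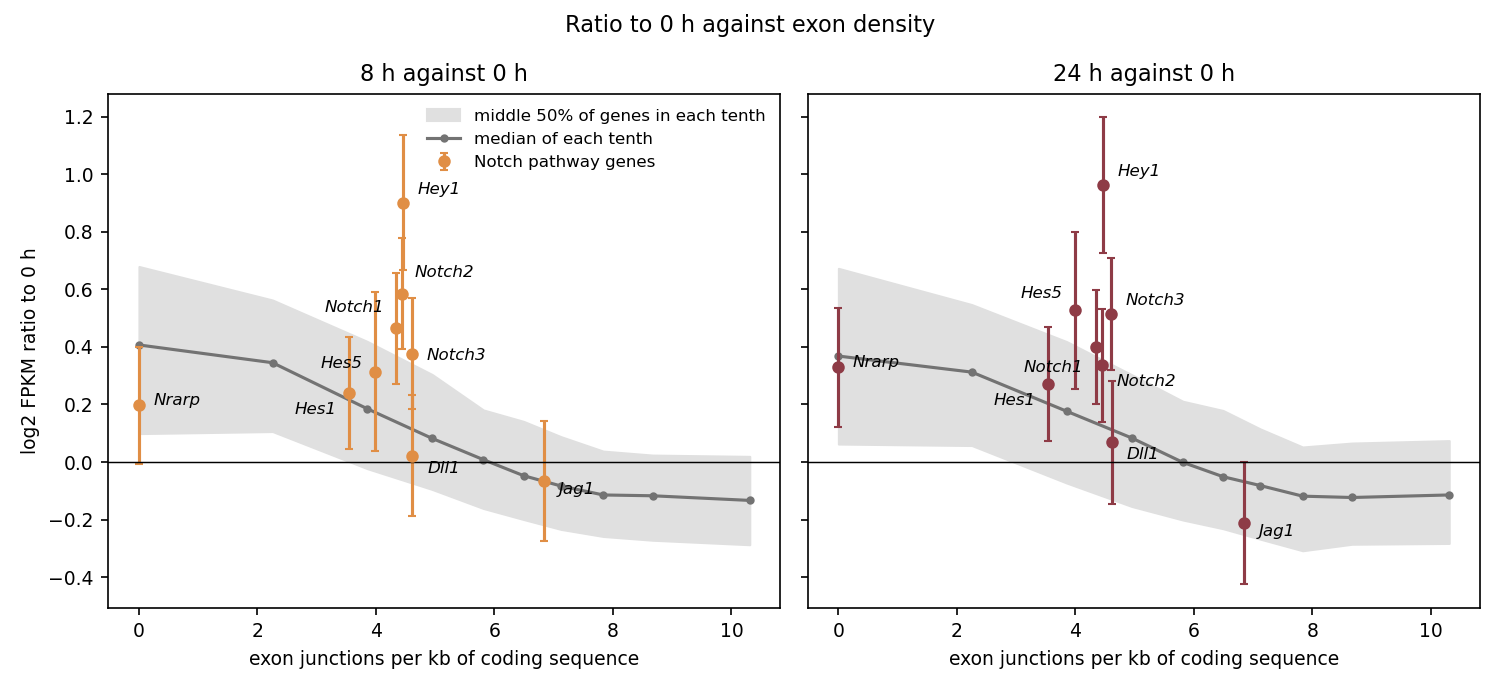
Log2 FPKM ratio to 0 h (y axis) at 8 and 24 h against junctions per coding kilobase (x axis), for the 9 Notch pathway genes judged (points, bars for the SE) and for 10 equal groups of genes by density (line for medians, shading for the middle 50%). Hey1 lies far above the line at both times, and Nrarp and Dll1 lie below it. At 24 h both are close to it, with Dll1 at 0.07 beside a group median of 0.08. Jag1 lies further below at 24 h, at -0.21 beside -0.08.

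Other features varied among the members. The receptors have internal exons of up to 506 to 572 bases and Dll1 one of 799 bases, above the median longest internal exon of 207 bases, while those of Hey1 and Hes1 reach 84 and 96 bases. The letters GGACT, the commonest form of the m6A motif, occurred 10 to 14 times in each receptor transcript and 2 times in those of Hes1, Hes5, Hey1 and Nrarp. Per kilobase, 8 of 10 members lay above the median of 1.05 over all genes. Hey1 at 0.825 and Nrarp at 0.775 lay below it. No m6A was measured in these files, so the letters say nothing of whether a site carries the mark.

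The genes whose ratios over the 3 times came closest to those of Hey1, among 8443 named genes with at least 5 FPKM at 0 h, were Det1, Rdh14 and D17H6S53E. Their Euclidean distances were 0.0292, 0.103 and 0.142 in log2 units. For Notch2 the closest were Slc35c1, Twnk and Nmnat1, at 0.0339, 0.0344 and 0.0355. The 3 ratios share the 0 h libraries, so this likeness rests in part on the same values. Some gene is always nearest. These distances are below the SE of single ratios, 0.23 to 0.27 for Hey1 and 0.19 to 0.21 for Notch2. Which genes come out nearest is thus within that error.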

How the data were processed

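Polyadenylated RNA of 8 samples (4 groups of 2, from the titles) was sequenced as paired-end reads, per the labels' protocols. The submitters' processing notes name Cufflinks 2.2.1, Cuffdiff and the build mm10. The aligner, the annotation and strandedness are not given in the sources used here. Per the file headers, the authors deposited FPKM with bounds, and estimated counts with variances (in counts squared; not a score), in 3 pairs of tables that each hold 0 h and 1 treated time in a single column per condition, combined over replicates. The level of the bounds is not stated; they extended a median of 2.16 deposited standard deviations at 0 h. Coefficients of variation had medians of 10.9% to 11.8% at 0 h.

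Normalization was separate for each table, and every ratio uses values of 1 table: log2((FPKM at t + 0.1)/(FPKM at 0 h + 0.1)). Such a ratio understates changes of low genes. Loci with status other than OK (10, 7 and 9) were left out. Loci without a name held 1.03% to 1.04% of the counts at 0 h. Genes were judged at 1 FPKM or more, and called at 1.5-fold with intervals apart, a rule that gives no p-value. No count model was fitted, because replicates are pooled. The rule was tested on simulated data only with changes larger than 1.5-fold, so its recovery of changes near 1.5-fold was not tested. Loci with wide intervals can miss the rule even at the larger changes. Coordinates and exon features are from GENCODE M21 (GRCm38, the same assembly as mm10), taking transcripts by APPRIS rank and then coding length, and promoter windows from RefSeq. Alternatives were 10 other settings. Named genes are all members, Mettl3, the wider-list genes that were called, and the 3 nearest patterns of called members. Further uncalled genes, and cell type markers, were named after their values were seen. The members and lists were chosen with earlier results of these data known. Python 3.11.15, numpy 2.4.6 and pandas 2.3.3 were used.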

Additional observations from a re-analysis of the deposited data

How the results depend on the processing

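Each member was judged again at each time under 10 other settings. Of these, 6 change only the filter or the threshold and leave the ratio as it is. The other 4 gave 120 ratios, and 120 kept their sign. For the pseudocounts of 1 and 0.01 FPKM this was fixed in advance, since adding the same amount to both values cannot change the sign. Only the estimated counts and the centring could have changed it. Of all 300 judgements, 5 differed, each a call that was lost: Hey1 at 8 and 24 h under a 2-fold threshold and Notch2 at 8 h under 2-fold, under a pseudocount of 1 FPKM (0.55) and under centring on the median of all loci (0.58). Settings that only loosen the rule could add a call but not end one, so most of these agreements are no check on the calls. The number of members called at 8 h was 2, and became 1 with a pseudocount of 1 FPKM, 1 with centring and 0 at 2-fold. At 24 h it was 1, and 0 at 2-fold, where both Hey1 ratios fall short by construction. For the wider list the number was 2 at 8 h, with 1 at 2-fold and 6 by fold alone, and 3 at 24 h, with 1 at 2-fold, 4 by fold alone and 2 with a minimum of 5 FPKM, where Insm1 is no longer judged. The estimated counts gave the same calls of members as FPKM. No paired analysis was possible because the tables hold a single column per condition, and for the same reason no replicate could be left out. Depth limits genes with few counts: with 46.8 to 59.2 estimated counts, Dll3 had an SE of 0.41 to 0.45 on the log2 scale.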

Other observations

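All 3 tables hold the 0 h group. The highest over the lowest 0 h FPKM was 1.02 for 8 of the 10 members. It was 1.07 for Jag1, at 6.36 FPKM in the table for 1 h and 6.77 FPKM in that for 24 h, and 1.15 for Dll3, at 0.662 and 0.762 FPKM. The Dll3 locus starts at 28293503 in the table for 1 h and at 28293214 in the others, on chromosome 7.

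FPKM and estimated counts gave unlike sizes for a few members. For Dll3 at 8 h the log2 ratio was 0.33 in FPKM and 0.12 in counts, and for Hes5 at 1 h it was -0.04 and -0.22. For Hey1 the values were 0.90 and 0.94 at 8 h, and 0.96 and 0.99 at 24 h.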
